A study of Mus musculus with 15 samples.

Results

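The lipin genes Lpin1, Lpin2 and Lpin3 and the sphingomyelin synthase genes Sgms1 and Sgms2 were examined for CpG methylation in mouse sperm. Members were the listed CpG positions inside the RefSeq span of each gene or within 2 kb on either side, which gave 112 of 204492 positions. Of these, 23 belonged to Lpin1, 6 to Lpin2, 2 to Lpin3, 48 to Sgms1 and 33 to Sgms2. Windows of 1 kb, 1 in Lpin1 (chromosome 12, 16590001 to 16591000, mm10) and 1 in Sgms2 (chromosome 3, 131476001 to 131477000), were set against the rest of their genes. These windows were chosen from the comparison of diets in the same libraries, so their difference between diets is described below without a test.

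The libraries were made by reduced representation bisulfite sequencing, in which DNA is cut with MspI at CCGG and cytosines that resist bisulfite conversion are read as methylated. All 15 came from sperm of male C57BL/6 mice of generation G1, 7 with the diet label Control and 8 with the label PR, which the series describes as protein restricted. The labels give no ages, and they leave unsaid who ate the PR diet, the G1 males or an earlier generation. They do not say that each library is a different mouse, so the p-values speak only to variation among libraries, which may be technical.

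Lipins are phosphatidate phosphatases, which remove a phosphate from phosphatidic acid to give diacylglycerol, a precursor of triacylglycerol and of phosphatidylcholine. Lpin1, the gene mutated in the fatty liver dystrophy mouse, also encodes a coactivator of fatty acid oxidation genes in liver, while Lpin2 and Lpin3 encode its homologues. Sphingomyelin synthases move phosphocholine from phosphatidylcholine onto ceramide and so release diacylglycerol as well, Sgms1 in the Golgi and Sgms2 largely at the plasma membrane. Mature sperm DNA is highly methylated outside CpG islands, whose promoters are mostly unmethylated.

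Summed over listed positions, read counts ran from 6650912 to 11841657 per library, with a median of 26 to 42 reads per CpG. Mean methylation per library lay between 95.1% and 95.6%. Every listed position had at least 11 methylated reads in every library, so a position with few methylated reads is not on the list. The 7 listed CpGs in stretches upstream of Meg3 and Rasgrf1, genes with paternally methylated imprinting regions upstream, together were at 90.9% to 96.4% across libraries. That is near the mean of all listed CpGs, so it gives no check of the tissue. The 8 maternally methylated promoters looked at held no listed CpG, but 0.980% of all promoters did, so they give no check either. In the quasi-binomial test of diet, 0 of 28743 windows of 1 kb, 0 of 204492 CpGs and 0 of 13664 genes passed an adjusted p of 0.05 (0% each). At an unadjusted p under 0.05 there were 957 windows (3.33%), 7754 CpGs (3.79%) and 416 genes (3.04%). limma called 0 in each case as well, with 1366 windows, 9320 CpGs and 648 genes at an unadjusted p under 0.05 on percentages and 1459, 9321 and 661 on logit values.

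None of the listed CpGs lay in a promoter of the members. RefSeq (GRCm38.p6) gives 16 promoter sequences for the 5 genes, each 300 bases from 250 before to 50 after a start, and 0 of them held a listed position. Among all 32851 promoters 0.980% did. Of the 16, 9 held 10 or more CG dinucleotides and 10 held the MspI site CCGG, a palindrome found in 52.8% of all promoters. Absence from the list does not give the methylation of these bases. The promoter sequences of 3 genes are shown, with every CG in capitals, because they show both CG-poor and CG-rich starts of the members. Those of Lpin1 and Lpin2 also place results along their genes, while the Sgms2 window is measured below from another start. The Lpin1 promoter is at chr12:16610917-16611216, on the minus strand, and holds 2 CG and no CCGG. The Lpin2 promoter nearest to the member CpG with the largest spread relative to counting noise is at chr17:71204404-71204703, on the plus strand, with 4 CG. The Sgms2 promoter at chr3:131490181-131490480, on the minus strand, holds 44 CG and 10 CCGG.
Lpin1: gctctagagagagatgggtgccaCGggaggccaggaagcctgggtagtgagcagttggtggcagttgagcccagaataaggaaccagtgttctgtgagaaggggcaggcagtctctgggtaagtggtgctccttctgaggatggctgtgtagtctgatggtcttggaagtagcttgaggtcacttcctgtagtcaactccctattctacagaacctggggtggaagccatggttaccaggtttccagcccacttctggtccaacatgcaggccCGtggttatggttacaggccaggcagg
Lpin2: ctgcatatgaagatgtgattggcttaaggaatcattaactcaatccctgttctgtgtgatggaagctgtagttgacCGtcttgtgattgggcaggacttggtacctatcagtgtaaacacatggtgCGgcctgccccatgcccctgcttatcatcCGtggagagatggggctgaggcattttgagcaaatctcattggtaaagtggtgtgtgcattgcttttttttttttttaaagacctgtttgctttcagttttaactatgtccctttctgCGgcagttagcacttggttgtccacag
Sgms2: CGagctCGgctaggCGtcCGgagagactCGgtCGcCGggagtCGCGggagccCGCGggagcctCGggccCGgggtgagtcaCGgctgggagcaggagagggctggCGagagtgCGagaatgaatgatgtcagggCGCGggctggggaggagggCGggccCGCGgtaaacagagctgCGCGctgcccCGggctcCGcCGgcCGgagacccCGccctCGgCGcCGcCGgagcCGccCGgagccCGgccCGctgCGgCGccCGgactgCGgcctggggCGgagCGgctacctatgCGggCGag

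The Lpin1 window was partly methylated and stood higher in PR sperm, inside a gene that was otherwise almost fully methylated. It held 7 listed CpGs over 361 bp (16590443 to 16590803), within the gene span. They lay 20.2 to 20.5 kb downstream of the start in the promoter shown above, which is itself inside the span. From the upstream end of the span they lay 63.1 to 63.5 kb. Exon and intron positions were not analysed here. Control libraries lay at 70.7% in the lowest, 78.0% in the median and 79.9% in the highest. PR libraries lay at 76.4%, 83.0% and 88.0%. Thus 7 of 8 PR libraries were above every control library, and PR replicate 4, at 76.4%, fell within the control range. The means were 76.9% ± 3.13 in control (SD, n = 7) and 83.5% ± 3.76 (SD, n = 8) in PR sperm, 6.57 points apart. In the ranking that chose it, the window had the 9th smallest p among 14376 windows with a higher mean in PR sperm. Among all 28743 windows its difference ranked 29th from the highest.

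All 7 CpGs of the Lpin1 window had a higher mean in PR sperm, by 1.14 to 8.78 points. The CpG at 16590803 was the least methylated, at 66.0% ± 4.98 (SD, n = 7) and 72.2% ± 5.27 (SD, n = 8). That at 16590577 was the most methylated in control sperm and differed least, at 87.0% ± 4.82 (SD, n = 7) and 88.2% ± 6.32 (SD, n = 8). Coverage divided the window into 3 CpGs with a mean of 27.0 reads and 4 CpGs with a mean of 34.7 reads, and within each set the totals were nearly the same, so its CpGs share reads. In the first set control sperm had 81.7% ± 5.25 (SD, n = 7) and PR sperm 86.7% ± 7.80 (SD, n = 8). In the second set the levels were 74.5% ± 3.62 (SD, n = 7) and 81.6% ± 4.87 (SD, n = 8). Both sets were thus higher in PR sperm, and in both the diets overlapped.

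**Figure D1:**
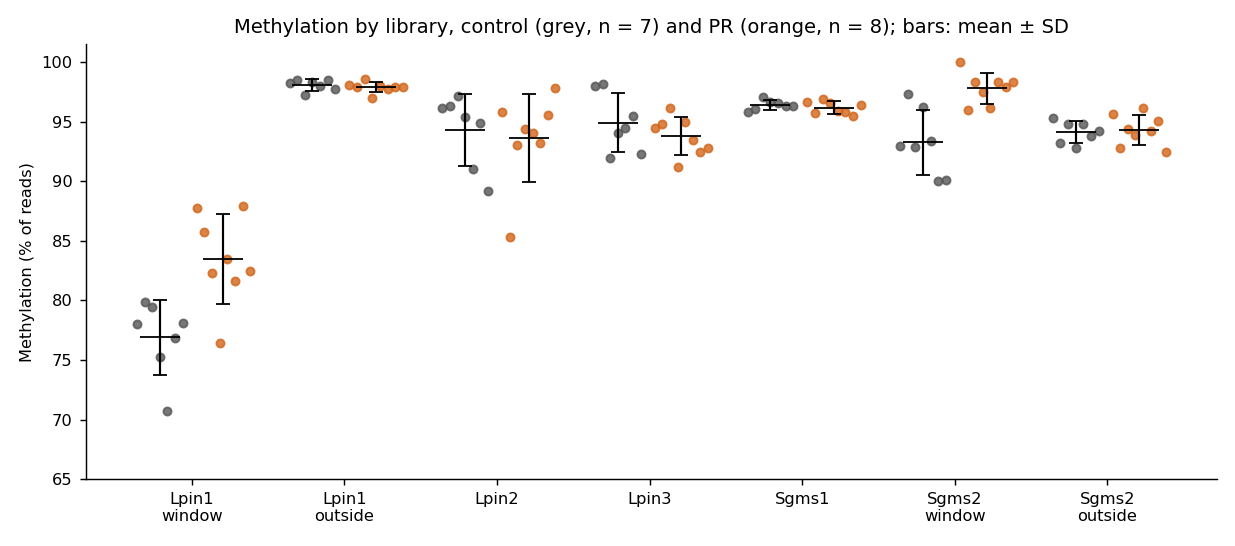
Methylation in percent of reads (vertical axis) in each library for the Lpin1 and Sgms2 windows, the rest of those genes, and Lpin2, Lpin3 and Sgms1 (horizontal axis). Grey points are 7 control and orange points 8 PR libraries, black bars the mean ± SD; in percentage points the difference between diets is largest in the Lpin1 window, at 76.9% and 83.5%.

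**Figure D2:**
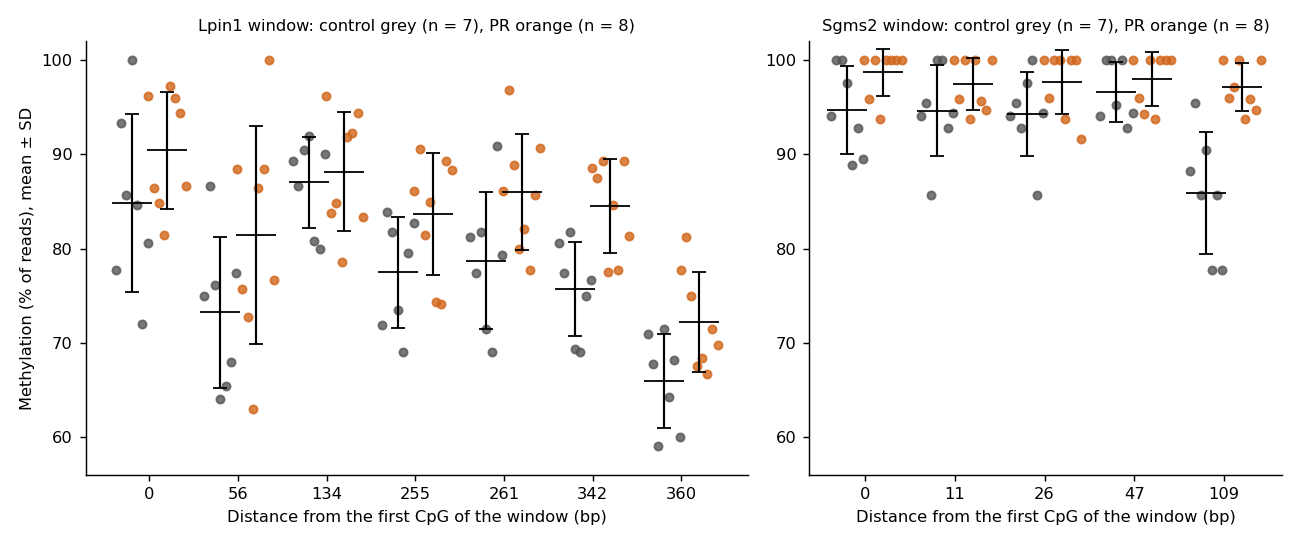
Methylation in percent of reads (vertical axis) at each CpG of the Lpin1 window (left) and the Sgms2 window (right), by distance in bp from the first CpG. Points are libraries and bars the mean ± SD; in the Sgms2 window the last CpG shows the lowest control values, down to 77.8%.

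Outside the window, 16 listed CpGs of Lpin1 were methylated at a high and even level. In control libraries the level was 97.2% at the lowest, 98.2% at the median and 98.5% at the highest, and in PR libraries 97.0%, 97.9% and 98.6%. The diets overlapped almost entirely, with 98.1% ± 0.467 in control (SD, n = 7) and 97.9% ± 0.432 (SD, n = 8) in PR sperm. The difference of -0.170 points lay inside the library spread (two-sided exact permutation p = 0.474, with -0.672 to 0.329 as the 95% interval of the difference). Leaving out single libraries moved it between -0.309 (control replicate 3) and -0.0445 (PR replicate 4). Of these CpGs 6 had a higher and 10 a lower mean in PR sperm, and none had an unadjusted p under 0.05. The lowest was at 16555635, at 94.9% ± 2.97 (SD, n = 7) and 92.3% ± 4.70 (SD, n = 8), and had the most negative difference, -2.56 points. The most positive, 1.37 points, was at 16541854.

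Within every library the Lpin1 window was less methylated than the rest of the gene. The gap averaged -17.6 points ± 4.77 (SD, n = 15) and ran from -27.2 to -9.97 points across the 15 libraries. A window near full methylation has little room for a difference between diets, so choosing windows by that difference favours lower levels, and the gap is given without a test. Only 4.32% of all windows had a lower mean level than the Lpin1 window. The spread between its libraries was 1.76 times counting noise, measured as the dispersion in the quasi-binomial test, against a median of 2.0 in 433 windows within 5 points of its level and 1.5 times of its coverage.

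The Sgms2 window was close to full methylation in PR sperm and a few points lower in control sperm. Its 5 CpGs lay within 110 bp (131476845 to 131476954), 12.1 to 12.2 kb downstream of the nearest start in the promoter table. Mean coverage was 20.2 reads, the thinnest of the regions compared, and the CpGs had nearly equal totals and so share reads. Control libraries ran from 90% through a median of 92.9% to 97.3%. PR libraries ran from 95.9% through 98.1% to 100%. Here 6 of 8 PR libraries exceeded every control library, while control replicates 2 and 4 lay inside the PR range. Means were 93.2% ± 2.75 in control (SD, n = 7) and 97.8% ± 1.30 (SD, n = 8) in PR sperm, 4.55 points apart. By quasi-binomial p this window ranked 8th among windows with a higher mean in PR sperm, which likewise adds no support.

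The gap between diets was widest at the last CpG of the window. At 131476954 control sperm had 85.9% ± 6.45 (SD, n = 7) and PR sperm 97.2% ± 2.53 (SD, n = 8), 11.3 points apart. The 4 other CpGs differed by 1.34 to 3.99 points, all with a higher mean in PR sperm. Few reads stand behind each value at 131476954. Control replicates 5 and 7 tied as lowest, at 77.8%. Replicate 5 had 14 of 18 reads methylated (95% Wilson interval 54.8% to 91.0%), and PR replicate 1 had 13 of 13 (77.2% to 100%). Such intervals cover counting error only. Every listed position had at least 11 methylated reads in every library, so a thinly read library could not show a low value here. The fewest reads at 131476954 were 12 in PR replicate 8 and 13 in PR replicate 1, followed by 14 in control replicates 3 and 6. How far this requirement bears on the difference between diets was not tested.

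The numbers in the sample titles fall into runs of consecutive values, 3 in control and 4 in PR sperm, and the labels do not say what they stand for. Averaged by run, the Lpin1 window was at 75.2% to 79.1% in control and 80.8% to 87.8% in PR sperm. For the Sgms2 window the runs were at 91.1% to 96.2% in control and 97.1% to 100% in PR sperm. Neither window overlapped between diets by run, but these are the values that chose the windows, so this adds no support. How many other windows separate by run was not counted. No run holds both diets, and the title numbers ran from 1 to 24 in control and from 30 to 44 in PR sperm. A factor that follows the runs or the title numbers therefore cannot be told apart from the diet.

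The remaining 28 CpGs of Sgms2 did not follow the window. Library values ran from 92.8% to 95.3% in control, median 94.2%, and from 92.4% to 96.1% in PR sperm, median 94.3%. The diets overlapped, at 94.1% ± 0.923 (SD, n = 7) and 94.3% ± 1.28 (SD, n = 8), and the difference of 0.179 points was within the spread (two-sided exact permutation p = 0.759, with -1.10 to 1.45 as the 95% interval of the difference). Its sign changed when PR replicate 1 (-0.00844), PR replicate 5 (-0.0783) or control replicate 4 (-0.0443) was left out. By CpG, 16 had a higher and 12 a lower mean in PR sperm, and 0 had an unadjusted p under 0.05.

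The level of the Sgms2 window relative to the rest of its gene turned with how the rest was averaged, and is also given without a test. With reads summed over all 28 other CpGs the window was 1.45 points ± 3.34 (SD, n = 15) higher, above the rest in 10 libraries and below it in 5. With each CpG weighted equally, the window minus the rest was -0.553 points. Without the CpG at 131329722, left out after its level was seen, the rest of the gene stood at 98.2% on average and the window minus the rest was -2.54 points ± 2.93 (SD, n = 15). Leaving out the lowest CpG can only raise the rest of the gene. Of all windows, 19.8% had a lower mean level than the Sgms2 window.

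**Figure D3:**
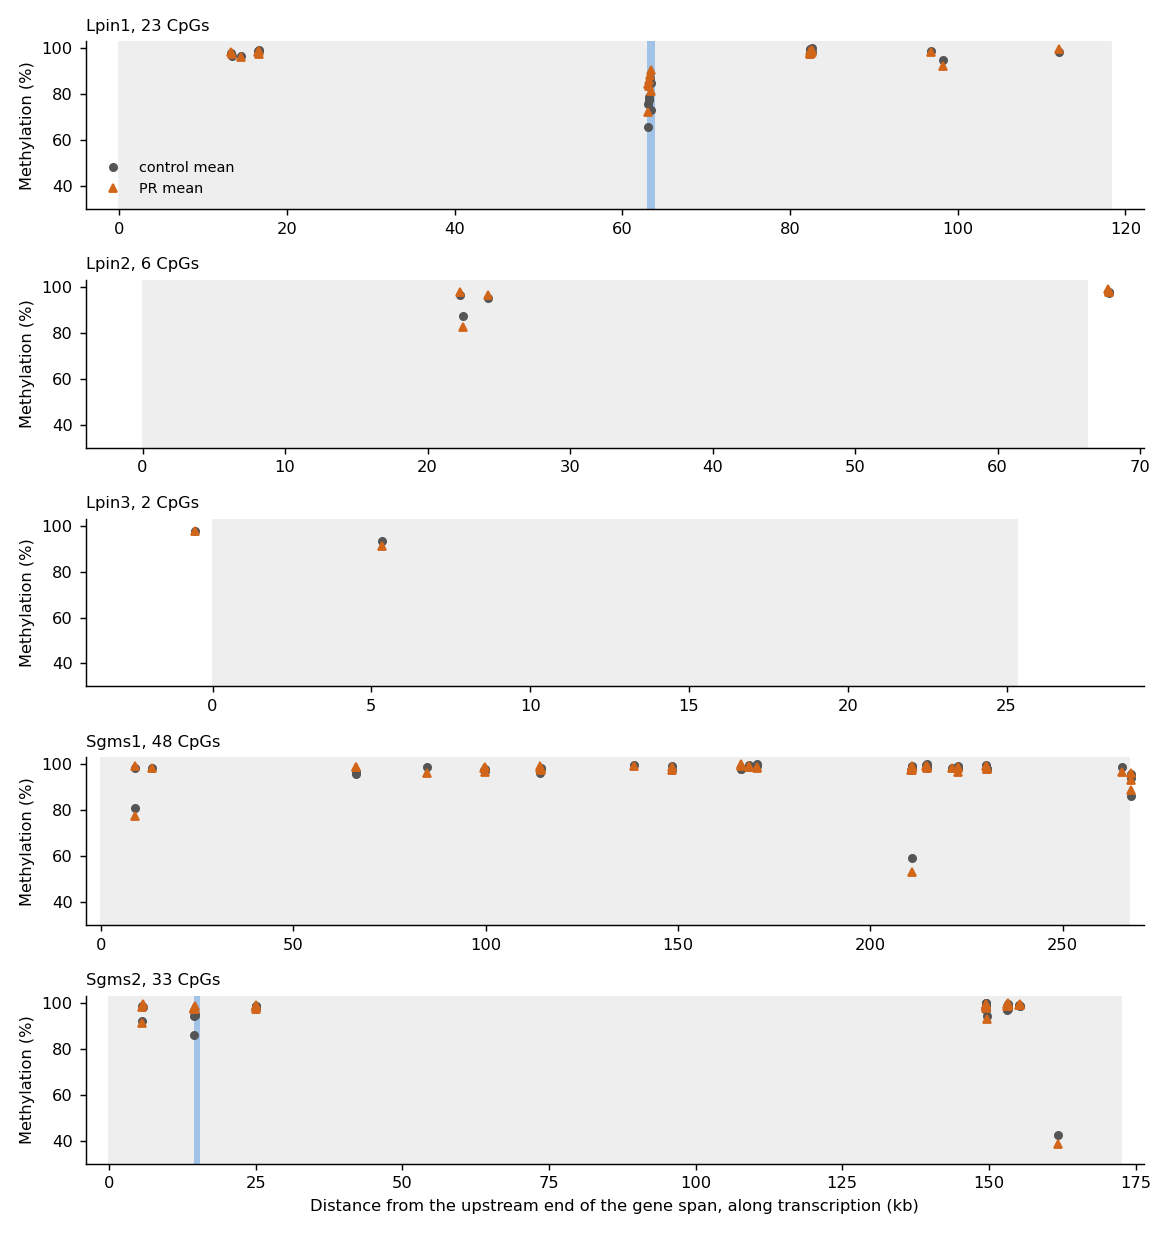
Mean methylation in percent (vertical axis) of each listed CpG in control (circles) and PR sperm (triangles), by distance in kb from the upstream end of the gene span along transcription. Grey marks the gene span and blue the 1 kb windows; most CpGs lie near 98%, apart from the Lpin1 window and single CpGs of Lpin2, Sgms1 and Sgms2.

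Sgms1 carried the most listed CpGs and was highly methylated at most of them, 44 of 48 having a mean of 95% or more. Library values ran from 95.8% to 97.1% in control, median 96.3%, and from 95.5% to 96.9% in PR sperm, median 96.1%. Means were 96.4% ± 0.409 (SD, n = 7) and 96.2% ± 0.516 (SD, n = 8), so the groups overlapped (difference -0.234 points, two-sided exact permutation p = 0.350, with -0.765 to 0.291 as the 95% interval of the difference). In the fit over all genes Sgms1 had an adjusted p of 0.999 (quasi-binomial test, Benjamini-Hochberg). It was -0.122 points without control replicate 3 and -0.136 without PR replicate 7. By CpG, 22 had a higher and 26 a lower mean in PR sperm.

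Of the 100 member CpGs outside both windows, 50 had a higher and 50 a lower mean in PR sperm, where 49.8% of all listed CpGs were higher, and the median difference was -0.00995 points. Only Sgms1 held any at an unadjusted p under 0.05, 4 CpGs or 4% of the 100, near the 3.79% of all listed CpGs, and each had an adjusted p of 1 in the quasi-binomial test. These 4, named after their values were seen, lay at 32223445, 32275681, 32323475 and 32323617, all with a higher mean in PR sperm, by 2.02 to 3.23 points, a direction that 1.89% of all listed CpGs took at that p. The largest, at 32275681, was at 96.1% ± 3.67 in control (SD, n = 7) and 99.4% ± 1.2 (SD, n = 8) in PR sperm. None of the 100 CpGs had diets that did not overlap, as against 0.0191% of all listed CpGs.

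By window, 16 windows of the members other than the 2 described held at least 3 listed CpGs. Of these 9 had a higher and 7 a lower mean in PR sperm, from -1.25 to 1.44 points, and 50% of all windows were higher. The diets overlapped in each of the 16, and failed to overlap in 0.0452% of all windows. A window of Sgms1 starting at 32223001 was the only one at an unadjusted p under 0.05, or 1 of 16 against 3.33% of all windows (1.64% with a higher mean in PR sperm), at 98.2% ± 1.52 (SD, n = 7) and 99.6% ± 0.548 (SD, n = 8), with an adjusted p of 0.999 (quasi-binomial test). The lowest level among the 16 was 92.0%, in the Sgms1 window starting at 32179001, and the highest 99.1%, in the Sgms2 window starting at 131336001.

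A single CpG of low level in Sgms1, at 32179154, stood between highly methylated neighbours. It was at 59.2% ± 6.22 in control (SD, n = 7) and 53.2% ± 6.62 (SD, n = 8) in PR sperm. The nearest listed CpG on each side, at 32179105 and 32179184, was at 98.7% and 98.6% over all libraries. Control libraries ranged from 49.0% to 65.6%, median 61.4%, and PR libraries from 45.5% to 67.4%, median 52.6%, so the diets overlapped. The difference of -5.99 points was the largest lower mean among the members, unadjusted p = 0.109 and adjusted p = 1 by the quasi-binomial test. Across all files 42826 listed CpGs had both neighbours within 100 bp at 95% or more, and 458 of these, 1.07%, were under 85%. Among members 1 of 35 such CpGs was.

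The lowest member CpG was at 131329722 in Sgms2, 161.7 kb from the upstream end of the span. Values ran from 36.7% to 54.2% in control, median 40%, and from 26.8% to 45.2% in PR sperm, median 41.0%, with overlap. Means were 42.4% ± 6.26 (SD, n = 7) and 38.4% ± 6.99 (SD, n = 8), with a mean coverage of 80.3 reads (unadjusted p = 0.383, adjusted p = 1, quasi-binomial test). No other listed CpG of Sgms2 outside the window was under 90%. Spread between libraries at this CpG was close to counting noise, with a dispersion of 1.29. Toward lower coordinates, the nearest listed CpG outside the 2 kb limit, 9021 bp from the span, was at 54.1%.

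Another low CpG of Sgms1, at 32381054, averaged 80.8% ± 7.87 in control (SD, n = 7) and 77.7% ± 11.1 (SD, n = 8) in PR sperm. It varied more than counting noise, with a dispersion of 2.79, a value reached by 2.61% of listed CpGs within 5 points of its level. PR replicate 5 was lowest, with 24 of 42 reads methylated, 57.1% (95% Wilson interval 42.2% to 70.9%), and control replicate 3 highest, with 52 of 57 reads, 91.2% (81.1% to 96.2%). The listed CpG 52 bp further was at 98.5% ± 2.04 (SD, n = 7) and 99.3% ± 0.935 (SD, n = 8).

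Lpin2 had 6 listed CpGs, 3 of them past the end of the span. Its level ran from 89.2% to 97.2% in control, median 95.3%, and from 85.3% to 97.8% in PR sperm, median 94.2%. Group means were 94.3% ± 2.99 (SD, n = 7) and 93.6% ± 3.71 (SD, n = 8), the widest spread among the members outside the windows, and the diets overlapped. The difference of -0.659 points was within that spread (two-sided exact permutation p = 0.730, with -4.54 to 2.98 as the 95% interval of the difference, adjusted p = 0.999 in the quasi-binomial fit over all genes). Without PR replicate 2 it was 0.530 points, with other single libraries left out it ran down to -1.50 (control replicate 7), and without the CpG at 71206012, left out after its spread was seen, 0.969 points.

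The CpG of Lpin2 at 71206012, 1358 bp downstream of the start in the promoter shown above, accounted for that spread. It was at 87.3% ± 9.54 in control (SD, n = 7) and 82.6% ± 11.4 (SD, n = 8) in PR sperm, unadjusted p = 0.260 and adjusted p = 1 by the quasi-binomial test. The highest control library, replicate 3, was methylated in 48 of 48 reads (95% Wilson interval 92.6% to 100%). The lowest PR library, replicate 2, was methylated in 49 of 85, or 57.6% (47.0% to 67.6%). At the opposite ends, control replicate 5 was at 72.2% and PR replicate 8 at 98.1%. These extremes were picked by their values, and the intervals cover counting error only. The dispersion of this CpG, 5.16, was reached by 0.240% of listed CpGs within 5 points of its level. The 5 other CpGs of Lpin2 averaged 95.3% to 99.0% in each diet.

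Lpin3 had 2 listed CpGs. At 160880104, 566 bp before its first start, control sperm had 97.6% ± 3.04 (SD, n = 7) and PR sperm 97.8% ± 3.17 (SD, n = 8). At 160886007 inside the span the levels were 93.5% ± 2.99 (SD, n = 7) and 91.1% ± 3.05 (SD, n = 8). Together they gave 94.9% ± 2.48 (SD, n = 7) in control, from 91.9% to 98.2%, and 93.8% ± 1.61 (SD, n = 8) in PR sperm, from 91.2% to 96.2%. The ranges overlapped and the difference of -1.11 points was within the spread (two-sided exact permutation p = 0.315, with -3.41 to 1.22 as the 95% interval of the difference). Without control replicate 1 it was -0.595 points and without control replicate 2 -0.558, and with the CpG inside the span alone it was -2.41.

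**Figure D4:**
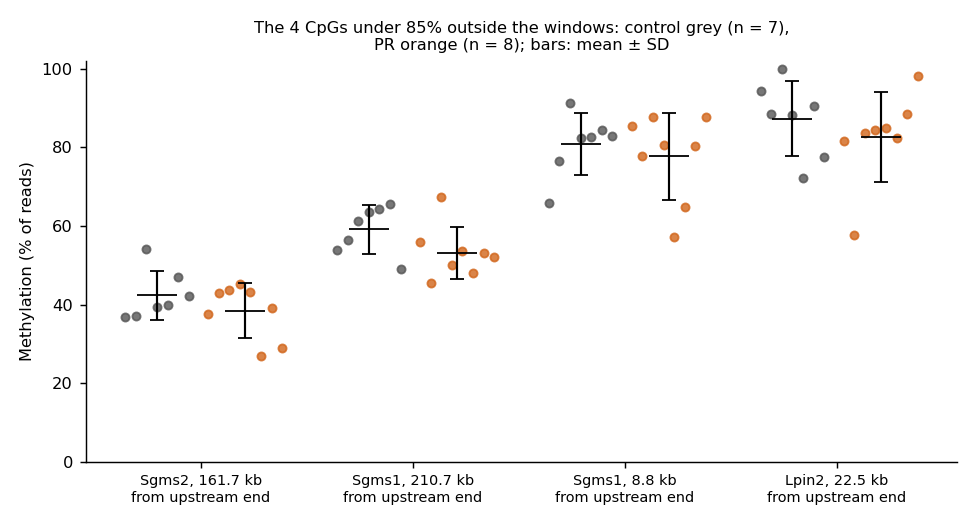
Methylation in percent of reads (vertical axis, from 0) at the 4 CpGs outside the windows with a mean under 85%, placed by distance in kb from the upstream end of their gene span. Grey points are 7 control and orange points 8 PR libraries, black bars the mean ± SD; PR replicate 2 lies apart at the Lpin2 CpG, at 57.6%.

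Member positions in the 2 kb flanks numbered 7, with means from 87.7% at Sgms1 to 98.5% at Lpin2. The nearest listed CpGs past the flanks lay 6701 to 108136 bp from the spans, with means from 54.1% to 99.1%. No listed member CpG lay inside another gene of the RefSeq table.

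Other genes of lipid synthesis were compared as 2 lists over gene spans and flanks. Of 35 genes of glycerolipid synthesis 28 had a listed CpG and 21 had at least 3, and 0 of the 21 passed the quasi-binomial test over all genes, where 0% did. A higher mean in PR sperm was seen in 7 and a lower one in 14, with a median difference of -0.284 points against 0.000632 over all 13664 genes, of which 50% were higher. Agpat3, which acylates lysophosphatidic acid, was at 98.4% ± 0.883 in control (SD, n = 7) and 99.2% ± 0.431 (SD, n = 8) in PR sperm. It was the only gene of the list at an unadjusted p under 0.05 (0.0322; adjusted p = 0.999, quasi-binomial test), or 1 of 21 against 3.04% of all genes (1.6% with a higher mean in PR sperm). The diets overlapped in all 40 genes tested from both lists, and failed to overlap in 0.0366% of all genes. Gpam, the mitochondrial glycerol phosphate acyltransferase, was at 98.9% ± 0.431 (SD, n = 7) and 99.2% ± 0.498 (SD, n = 8). The lowest differences were at Chkb, a choline kinase, with 98.4% ± 0.899 (SD, n = 7) and 97.0% ± 1.40 (SD, n = 8), and at Pemt, which methylates phosphatidylethanolamine, with 98.5% ± 0.511 (SD, n = 7) and 97.9% ± 0.660 (SD, n = 8).

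Of 38 genes of sphingolipid metabolism 29 had a listed CpG and 19 had at least 3. None of the 19 passed, and none had an unadjusted p under 0.05 (quasi-binomial test). Here 13 had a higher and 6 a lower mean in PR sperm, with a median difference of 0.151 points. Among single CpGs 11 of 176 had an unadjusted p under 0.05, or 6.25%, and in the glycerolipid list 8 of 200, or 4%, where all listed CpGs gave 3.79%. Smpdl3b, a sphingomyelin phosphodiesterase-like protein, was at 80.5% ± 5.45 in control (SD, n = 7) and 81.6% ± 5.42 (SD, n = 8) in PR sperm. Acer2, an alkaline ceramidase, was at 66.9% ± 6.21 (SD, n = 7) and 67.9% ± 5.31 (SD, n = 8). On the lower side Asah2, the neutral ceramidase, was at 97.2% ± 1.06 (SD, n = 7) and 96.0% ± 2.09 (SD, n = 8). Ugcg, which makes glucosylceramide, was at 97.3% ± 0.799 (SD, n = 7) and 96.8% ± 0.775 (SD, n = 8).

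**Figure D5:**
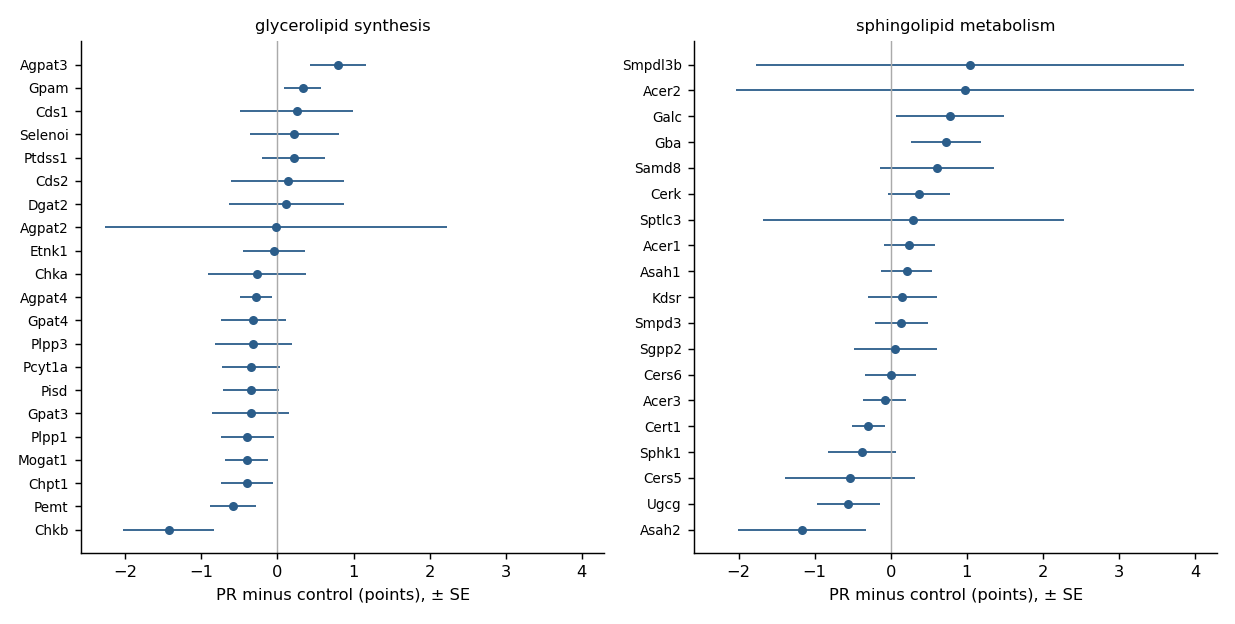
Difference in methylation, PR minus control in points (horizontal axis), for each gene with at least 3 listed CpGs in the glycerolipid (left) and sphingolipid lists (right), with its standard error between libraries. Differences run from -1.43 points at Chkb to 1.04 at Smpdl3b, and genes of intermediate methylation such as Acer2 have the widest errors.

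The windows whose library profile was most like that of the Lpin1 window were sought among 14756 windows within 2 kb of a gene other than the members with an SD of at least 1 point over the 15 libraries. Pearson's r over the 15 libraries was 0.826 for a window in Gm38424, 0.823 for one in Tubgcp6, a gamma-tubulin complex component, and 0.818 for one near Ifitm2, an interferon-induced membrane protein. For the Sgms2 window the closest were in Gm26878 (r = 0.836), Crocc2 (r = 0.828) and Ucp2, a mitochondrial uncoupling protein (r = 0.827). The Ucp2 window was at 97.8% ± 1.24 in control (SD, n = 7) and 99.2% ± 0.572 (SD, n = 8) in PR sperm. These are the highest of many values over the same libraries, which share the diet groups used to choose the windows, and they are given as a description only.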

How the data were processed

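Sperm DNA from 7 control and 8 PR libraries was analysed from the deposited raw counts of methylated reads and of all reads at each CpG, without normalization, per the file headers. Bismark 0.7.12, Bowtie2 2.1.0 and mm10 come from the submitters' processing notes, which list them without roles. For trimming, filters and strand merging, no step is given in the sources used here. Each file holds the same positions, and 717 of 717 listed positions inside RefSeq promoters were the C of a CG on the plus strand. Diets come from the labels, and replicates are numbered in accession order.

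Percent methylation was methylated over total counts, summed over a region. Diets were compared with a quasi-binomial logistic model (F test, 13 residual degrees of freedom, dispersion at least 1, Benjamini-Hochberg at 0.05) over all CpGs, and over 1 kb windows and genes with at least 3 listed CpGs. Regions not chosen by diet were compared with an exact permutation test over 6435 splits, with intervals obtained by inverting it. A sign-flip test of each window against the rest of its gene was computed but is not reported, because the choice of windows bears on their level. limma 3.58.1 was the alternative, with scipy 1.17.1 and R 4.3.3. The tests were checked on simulated data. Named were every CpG of both windows, per gene the lowest CpG and the largest difference each way, the lowest and highest window, 2 pathway genes each way per list and the 3 windows most like each. Members and lists were chosen with earlier results of these data known. No genome sequence was used, so exons, introns and the sequence of the windows were not analysed here.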

Additional observations from a re-analysis of the deposited data

Results flagged for a closer look

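In 6 of the 64 sets of libraries looked at, the extreme library lay far from its neighbour relative to the full spread of that diet. For independent, normally distributed values this would happen in about 1 set in 20. Many of these sets lie near 100%, some contain others, and some are CpGs picked for a low level or a large difference. The count therefore cannot be set against that rate. For Lpin2 as a whole this was PR replicate 2, at 85.3%, while the next PR library was at 93.0%. The same library was at 57.6% at the Lpin2 CpG at 71206012, with the next at 81.6%, and these values share reads. For the Sgms1 CpG at 32179154 it was PR replicate 3, at 67.4%, with the next at 55.8%. For Sgms2 outside the window and without its lowest CpG it was control replicate 2, at 98.9%, with the next at 98.2%. For the Sgms2 CpG at 131338236 it was control replicate 7, at 85.7%, with the next at 95.5%. For the Lpin1 CpG at 16541854 it was PR replicate 8, at 97.1%, with each of the other PR libraries at 100%, where any lower value would be flagged.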

How the results depend on the processing

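The Lpin1 window difference lay between 5.54 and 7.80 points under 20 alternatives and the Sgms2 window difference between 4.01 and 5.22 under 18. Each was within the spread between libraries of its main value. These alternatives reuse the reads that chose the windows, so they are a description and add no support. The Sgms2 window moved by 500 bp toward higher coordinates held the same 5 CpGs. For Lpin1 the moved windows held 2 and 5 of its 7 CpGs, and 4 had 20 reads in every library. No Sgms2 window CpG had 20 reads in every library, and no listed CpG lay in that window moved by 500 bp toward lower coordinates, so those values were not computed. Counts of called windows, CpGs and genes were 0 under every alternative run. With 1 library left out, Sgms2 outside the window ran from -0.0783 to 0.448 points, Lpin2 from -1.50 to 0.530 and the Sgms2 window against its gene from 1.14 to 1.85. Without their lowest CpG, left out after seeing the data, Lpin2 gave 0.969 points, Sgms1 0.0338 and the Sgms2 window against its gene -2.54. With all CpGs kept but weighted equally, the Sgms2 window against its gene was -0.553. With CpGs at 20 reads or more in every library Lpin2 gave -3.20 points, Lpin3 -2.41, Sgms1 -0.389 and Lpin1 outside the window -0.0832. Without flanks Lpin2 gave -1.84 and Lpin3 -2.41. With CpGs weighted equally Lpin2 gave -0.0243, Sgms1 -0.127, Sgms2 outside the window 0.0570 and Lpin1 outside it -0.337. Averaged by run of title numbers, Sgms2 outside the window gave 0.662 and Lpin3 -0.724. No comparison of diets outside the windows passed the exact permutation test at 0.05 in any alternative run, and other than those named none changed direction. The cause was not tested. No paired analysis was possible because the labels give no replicate numbers shared between diets. Depth limits single CpGs most, at 17.7 to 80.5 reads on average.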

Other observations

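Methylation of the 2 sets of reads in the Lpin1 window showed little correlation between libraries, although counting noise at this depth can hide a relation. With each diet centred on its mean, Pearson's r between the sets was -0.0410 over the 15 libraries, and between the Lpin1 and Sgms2 windows it was 0.0776. Both are descriptions over libraries that share depth, with no test. PR replicate 4, the lowest PR library in the Lpin1 window, was at 97.5% in the Sgms2 window, and control replicate 2, the highest control library there, at 97.3%, was also the highest control library in the Lpin1 window, at 79.9%.

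Of the 40 lipid genes tested, 4 had a mean level under 85% over all libraries. Agpat2, an acyltransferase of phosphatidic acid synthesis, was at 79.7% ± 3.18 in control (SD, n = 7) and 79.6% ± 5.38 (SD, n = 8) in PR sperm over 3 CpGs. Sptlc3, a subunit of serine palmitoyltransferase, was at 81.0% ± 4.40 (SD, n = 7) and 81.3% ± 3.03 (SD, n = 8) over 5 CpGs. Acer2 and Smpdl3b, given above, were the others.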
